A study of Homo sapiens with 38 samples.

Results

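Genes of sterol and fatty acid synthesis that respond to the sterol regulatory element binding proteins (SREBPs) were followed in IMR90 cells, an established line of human diploid lung fibroblasts, on Affymetrix arrays. The set was a fixed list of 34 gene symbols, each read on the brightest of its probe sets by mean of the 38 arrays. Of the 34 genes, 31 had a probe set that names no other gene, and 28 of them were among the 8511 genes tested, out of 19775 genes with a probe set of their own. There were 4 arms: empty vector (MLP) and short hairpins named for RB, p107 and p130, the pocket proteins of the retinoblastoma family. In experiment 1, every arm was measured in 4 states with 2 arrays per group, namely growth in 10% fetal bovine serum, low serum (0.1%), confluence, and senescence induced by ras. Experiment 2 added 6 arrays, 2 of growing cells with vector and 2 of senescent cells each with vector and with shRB. Confluent and senescent cells, and all cells of experiment 2, were also in 10% serum, so only the low-serum groups differed in serum. The labels state neither how long the cells were held in a state nor whether replicates came from separate cultures, so a p-value measures only the spread between these arrays, which may be technical.

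SREBPs are transcription factors made as precursors in the membrane of the endoplasmic reticulum. When membrane sterol is low, the escort protein SCAP carries the precursor to the Golgi, where it is cut and releases the active factor; when sterol is high, INSIG proteins hold SCAP back. SREBF2 encodes the form best known for driving cholesterol synthesis and SREBF1 the forms best known for driving fatty acid synthesis, and INSIG1 is itself a target. The listed genes cover the mevalonate steps from acetyl-CoA to farnesyl diphosphate (ACAT2, HMGCS1, MVK, PMVK, MVD, IDI1, FDPS), the steps from squalene to cholesterol (FDFT1, SQLE, LSS, CYP51A1, TM7SF2, MSMO1, NSDHL, HSD17B7, EBP, SC5D, DHCR7), the regulators (SREBF1, SREBF2, SCAP, INSIG1, INSIG2), sterol transport (STARD4, TMEM97, NPC1), fatty acid synthesis (ACLY, ACACA, FASN, ELOVL6, SCD, FADS1, FADS2) and the phosphatidate phosphatase LPIN1. The mevalonate and squalene steps together are called the sterol branch below, with 14 of 18 genes tested, and fatty acid synthesis the fatty acid branch, with 6 of 7 tested.

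SREBPs bind short elements near the start of their targets, usually beside sites for the factors NF-Y, which reads CCAAT, and SP1, which reads GGGCGG. The RefSeq promoters of 5 members (GRCh38.p14, from 250 bases before the transcription start to 50 after it) are printed because they belong to the gene of SREBP-2 itself and to the members with the largest low-serum changes in the regulator, transport, mevalonate and fatty acid groups. SREBF2, INSIG1 and SCD held CACNCCAC in this window, HMGCS1 and TMEM97 did not, and all 5 held CCAAT and GGGCGG. They are written 5′ to 3′ on the strand of the gene, with capitals marking CACNCCAC (extended to TCACNCCAC where the T is there) and CCAAT, each on either strand.
SREBF2 (chr22:41832855-41833154, plus strand): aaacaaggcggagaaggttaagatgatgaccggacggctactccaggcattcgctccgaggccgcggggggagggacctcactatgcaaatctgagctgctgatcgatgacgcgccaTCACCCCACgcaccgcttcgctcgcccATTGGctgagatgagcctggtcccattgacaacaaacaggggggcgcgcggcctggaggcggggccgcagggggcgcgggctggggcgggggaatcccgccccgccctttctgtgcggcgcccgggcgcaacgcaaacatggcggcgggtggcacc
HMGCS1 (chr5:43313363-43313662, minus strand): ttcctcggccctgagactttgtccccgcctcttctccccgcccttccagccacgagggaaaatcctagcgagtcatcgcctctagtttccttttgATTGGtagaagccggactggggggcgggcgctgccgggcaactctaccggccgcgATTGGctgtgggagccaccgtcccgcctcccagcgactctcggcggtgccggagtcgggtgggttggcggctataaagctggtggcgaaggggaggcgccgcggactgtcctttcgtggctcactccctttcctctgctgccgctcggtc
INSIG1 (chr7:155297628-155297927, plus strand): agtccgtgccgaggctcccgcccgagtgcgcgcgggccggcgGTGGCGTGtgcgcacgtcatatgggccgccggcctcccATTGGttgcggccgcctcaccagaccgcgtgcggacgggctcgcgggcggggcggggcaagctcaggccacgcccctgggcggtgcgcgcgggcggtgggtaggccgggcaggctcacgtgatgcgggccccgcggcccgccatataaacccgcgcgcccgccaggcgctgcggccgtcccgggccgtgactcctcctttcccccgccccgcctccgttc
TMEM97 (chr17:28318950-28319249, plus strand): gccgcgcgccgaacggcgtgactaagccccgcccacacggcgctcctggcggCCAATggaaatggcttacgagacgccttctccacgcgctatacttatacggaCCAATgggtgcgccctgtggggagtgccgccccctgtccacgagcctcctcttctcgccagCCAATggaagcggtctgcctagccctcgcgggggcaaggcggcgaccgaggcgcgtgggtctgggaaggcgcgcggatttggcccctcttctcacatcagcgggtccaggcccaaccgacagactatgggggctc
SCD (chr10:100346983-100347282, plus strand): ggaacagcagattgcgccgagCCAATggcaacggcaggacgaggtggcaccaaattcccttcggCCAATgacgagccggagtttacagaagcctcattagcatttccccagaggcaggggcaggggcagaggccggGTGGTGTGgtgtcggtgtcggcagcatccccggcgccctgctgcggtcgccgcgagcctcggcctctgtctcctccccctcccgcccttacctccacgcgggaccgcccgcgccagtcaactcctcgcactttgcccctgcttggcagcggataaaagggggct

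The SREBF2 promoter was the only 1 of 42 member promoters, which belong to 30 of the 34 genes, with TCACNCCAC; the match began 133 bases before the start, followed by an inverted CCAAT 106 bases before it. Of all 35116 promoters of this length, 1.13% held that sequence. TMEM97 had 3 CCAAT matches, HMGCS1 and SCD 2 each, and INSIG1 and SREBF2 1 each. CCAAT lay in 25 of 42 member promoters, in 15 of 20 of the sterol branch and in 6 of 10 of the fatty acid branch, against 34.6% of all promoters. GGGCGG lay in 37 of 42 against 45.0%, and CACNCCAC, which every TCACNCCAC contains, in 7 of 42 against 5.87%. For HMGCS1, the table holds a second promoter, which is not printed. A match is a run of letters and not a measured site, and no match says only that these letters are not in this window.

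The deposited values were log2 values, with array medians between 3.27 and 3.41. RB1 was lower in the shRB arm by 4.05 to 5.32 on the log2 scale in the 4 states of experiment 1, and its change in experiment 2 was -2.28. RBL2 was lower with shp130, by 2.68 averaged over the states. RBL1, the p107 gene, changed by -0.66 ± 0.27 (SE) in the arm labelled shp107 and was not called (adjusted p = 0.173), so that arm is named by its label only. All 10 listed fibroblast markers were tested, and none of the listed epithelial, blood or adipocyte markers reached a value that could be tested (highest 3.72, 3.92 and 4.67). Of the endothelial list, TEK was the only gene tested, and of the hepatocyte list SERPINA1. Replicates correlated at 0.980 to 0.997 over all probe sets, dim ones included. Over the genes tested, the confluent vector pair differed most, with an SD of the difference of 0.794. The low-serum vector pair differed among the members, replicate 1 lying below replicate 2 by a median of 0.75 over the sterol branch. In the other low-serum pairs, this median of replicate 1 minus replicate 2 was -0.48 with shRB, -0.39 with shp107 and 0.27 with shp130. All 9 mitosis genes tested were lower in confluent and in senescent vector cells, and 6 of 9 in low serum. Of all genes tested, 14.5%, 16.2% and 6.36% were lower in these comparisons. The part of proliferation in the values below was not tested.

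Most tested members were higher in low serum than in growing cells. Compared with growing vector cells, 20 of the 28 tested members were higher in low-serum vector cells and 1 was lower (limma, Benjamini-Hochberg adjusted p under 0.05), while 6.69% of all genes tested were higher and 6.36% lower. The count of higher members was smaller in most fits that left out 1 of these arrays, and the genes that lost their call are named below. The median change over the members was 1.52, against 0.03 over all genes tested. The sterol branch had 12 of 14 genes higher, with a median of 1.99 and a range of 0.15 to 3.85, and the fatty acid branch 4 of 6, with a median of 1.07 and a range of 0.36 to 2.94. TM7SF2 was above 5 on 4 arrays, all in low serum, and between 3.40 and 3.98 in the other states of experiment 1, so it could be tested only through the state where it is high. Without it, 19 of 27 members and 11 of 13 sterol branch genes were higher in low-serum vector cells (medians 1.54 and 1.99). Low-serum, confluent and senescent cells were all set against the same 2 growing vector arrays. Below, whether groups overlap is a description only. With 2 arrays per group, unchanged genes can also lack overlap, and the share of all genes without overlap was not counted. Most genes so described were already picked by their call.

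**Figure D1:**
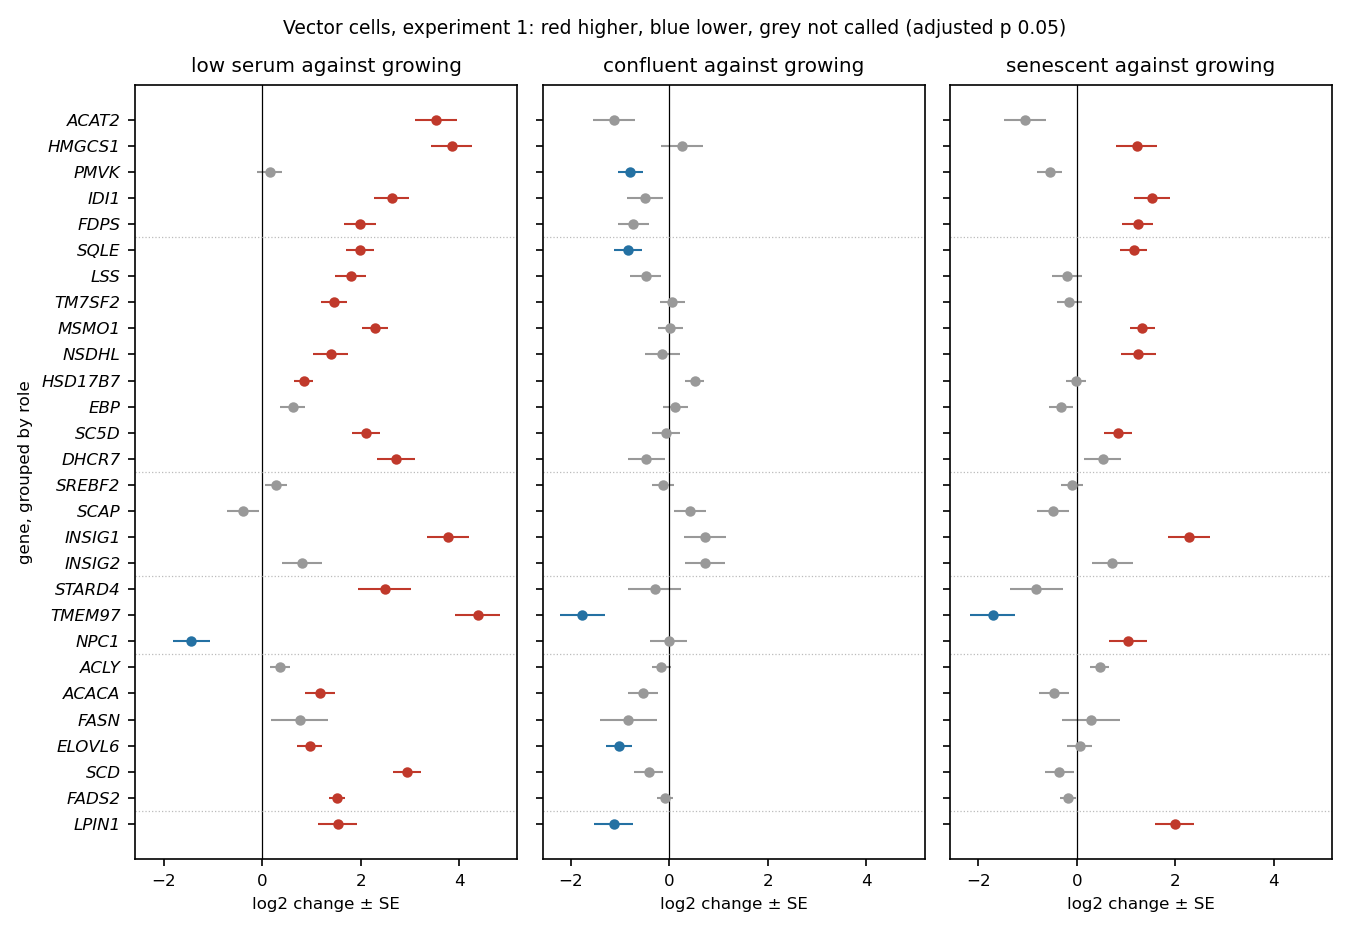
Log2 change (x axis, ± SE) of the 28 tested members (y axis, grouped by role) in vector cells of experiment 1, for low serum, confluence and senescence against growing cells, 2 arrays a group. Red points were higher and blue points lower at an adjusted p under 0.05, grey points were not called; in low serum 20 members were higher, at confluence none, and in senescence 10.

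Of the mevalonate genes, HMGCS1, which makes HMG-CoA, read 6.10 and 6.24 on the growing vector arrays and 9.21 and 10.82 on the low-serum vector arrays, a rise of 3.85 ± 0.42 (SE, 14.4-fold, adjusted p = 4.19e-06). ACAT2, the cytosolic enzyme that joins acetyl-CoA units ahead of it, read 6.66 and 6.76 against 9.46 and 11.01 and rose by 3.53 ± 0.43 (11.5-fold). The groups did not overlap for either gene, and both were lower on replicate 1 of the low-serum pair. A further, dimmer HMGCS1 probe set rose by 2.02. The isomerase IDI1 rose by 2.63 ± 0.36 and the farnesyl diphosphate synthase FDPS by 1.99 ± 0.32. PMVK, phosphomevalonate kinase, was the only mevalonate gene tested that was not called, with a change of 0.15 ± 0.25 and overlapping groups.

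From squalene on, 7 of 8 genes rose, TM7SF2 left aside. DHCR7, which carries out a last reduction to cholesterol, read 4.54 and 4.60 in growing and 6.53 and 8.05 in low-serum vector cells and rose by 2.72 ± 0.38 (6.58-fold). The squalene epoxidase SQLE read 8.39 and 8.36 against 10.06 and 10.66 and rose by 1.98 ± 0.28. Neither gene's groups overlapped. The methylsterol oxidase MSMO1 rose by 2.29, the desaturase SC5D by 2.11, the lanosterol synthase LSS by 1.80, the dehydrogenase NSDHL by 1.39 and the ketoreductase HSD17B7 by 0.84. The sterol isomerase EBP had a change of 0.62 ± 0.25 (adjusted p = 0.104), although a further EBP probe set gave 1.61. The reductase TM7SF2, which passed the filter through low serum alone, had a change of 1.46.

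The regulators differed from one another. INSIG1 read 6.65 and 6.95 in growing and 10.10 and 11.03 in low-serum vector cells, without overlap, and rose by 3.77 ± 0.42 (13.6-fold). Further INSIG1 probe sets gave 3.79 and 2.39. SREBF2 read 4.60 and 5.06 against 5.06 and 5.18, SCAP 5.23 and 4.85 against 4.84 and 4.45, and INSIG2 5.95 and 5.38 against 6.75 and 6.19; their changes of 0.29 ± 0.22, -0.40 ± 0.32 and 0.80 ± 0.41 were not called. SREBF1 read 4.09 and 3.47 against 4.15 and 4.09, below the level needed for a test on all 38 arrays. Averaged over the 4 arms, which sets 8 low-serum arrays against 8 growing arrays, SREBF2 rose by 0.52 ± 0.11 (adjusted p = 0.000766) and SCAP fell by 0.47 ± 0.16 (adjusted p = 0.0265), and the arrays of the states overlapped for both. SCAP lost its call without any 1 of 8 arrays, among them growing vector replicate 1 (adjusted p = 0.0646).

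Sterol transport held the largest rise and the only fall in low serum. TMEM97, a membrane protein of the endoplasmic reticulum known to bind NPC1 and to affect its stability, read 6.76 and 7.24 in growing and 11.50 and 11.24 in low-serum vector cells and rose by 4.37 ± 0.45 (20.7-fold). STARD4, which carries cholesterol between membranes, read 5.79 and 5.84 against 7.89 and 8.72 and rose by 2.49 ± 0.54, a call that did not hold (adjusted p = 0.0503) when low-serum vector replicate 2 was left out. NPC1, which exports cholesterol from the lysosome, read 8.96 and 7.86 against 7.46 and 6.49 and fell by 1.44 ± 0.38 (adjusted p = 0.015). The groups were separate for all 3 genes, and NPC1 was not called when growing vector replicate 1 (0.219) or low-serum vector replicate 2 (0.179) was left out, with adjusted p-values in parentheses. Averaged over the 4 arms, NPC1 fell by 1.22 ± 0.19, with overlapping arrays.

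In the fatty acid branch, SCD, the desaturase that makes monounsaturated fatty acids, read 9.41 and 9.01 in growing and 11.96 and 12.35 in low-serum vector cells and rose by 2.94 ± 0.29 (7.69-fold). FADS2, a desaturase of polyunsaturated fatty acids, rose by 1.51 ± 0.17, and ACACA, which makes malonyl-CoA, by 1.18 ± 0.30. The elongase ELOVL6 read 8.71 and 8.70 against 9.45 and 9.88 and rose by 0.96 ± 0.26. No groups overlapped for these 4 genes. The fatty acid synthase FASN had a change of 0.77 ± 0.58 and the citrate lyase ACLY of 0.36 ± 0.19, and neither was called in vector cells. Further bright ACLY probe sets, which were not tested, gave 0.55 and 0.58. FASN read 5.22 and 8.33 on the 2 low-serum shRB arrays, a wider gap than on any other pair of the series for this gene. LPIN1, which makes diacylglycerol from phosphatidate, read 7.38 and 7.68 against 8.76 and 9.37 and rose by 1.54 ± 0.40. ACACA, ELOVL6, LPIN1 and NSDHL were each not called without low-serum vector replicate 2 (adjusted p between 0.115 and 0.185) or either of the growing vector arrays. HSD17B7 was not called without low-serum vector replicate 2 (adjusted p = 0.0941) or growing vector replicate 2 (adjusted p = 0.114).

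Most members were also higher in low serum in each hairpin arm. In low serum, 16 members were higher in shRB cells (background 2.89%), 21 in the cells labelled shp107 (3.36%) and 21 in shp130 cells (4.71%). The sterol branch medians were 1.73, 1.87 and 1.86 and the fatty acid branch medians 1.03, 1.19 and 1.32. No member was lower in shRB cells (background 3.54%) or in the cells labelled shp107 (3.44%), and NPC1 was lower in shp130 cells (5.09%). The difference of the low-serum change between a hairpin arm and vector was called for no member (limma; background 0% with shRB and with shp107, and 0.0117% lower with shp130); at an unadjusted p under 0.05, TMEM97 and NPC1 differed with shRB and no member with the other 2 hairpins. Averaged over the 4 arms, 24 of 28 members were higher and 2 lower, against 19.2% and 18.8% of all genes. That count held 13 of 14 sterol branch genes (median 1.84) and all 6 of the fatty acid branch (median 1.14). Without TM7SF2 these counts were 23 of 27 and 12 of 13, and by arm 15, 20 and 20 members. PMVK (-0.04 ± 0.13) and INSIG2 (0.44 ± 0.20, adjusted p = 0.0978) were the 2 members not called.

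**Figure D2:**
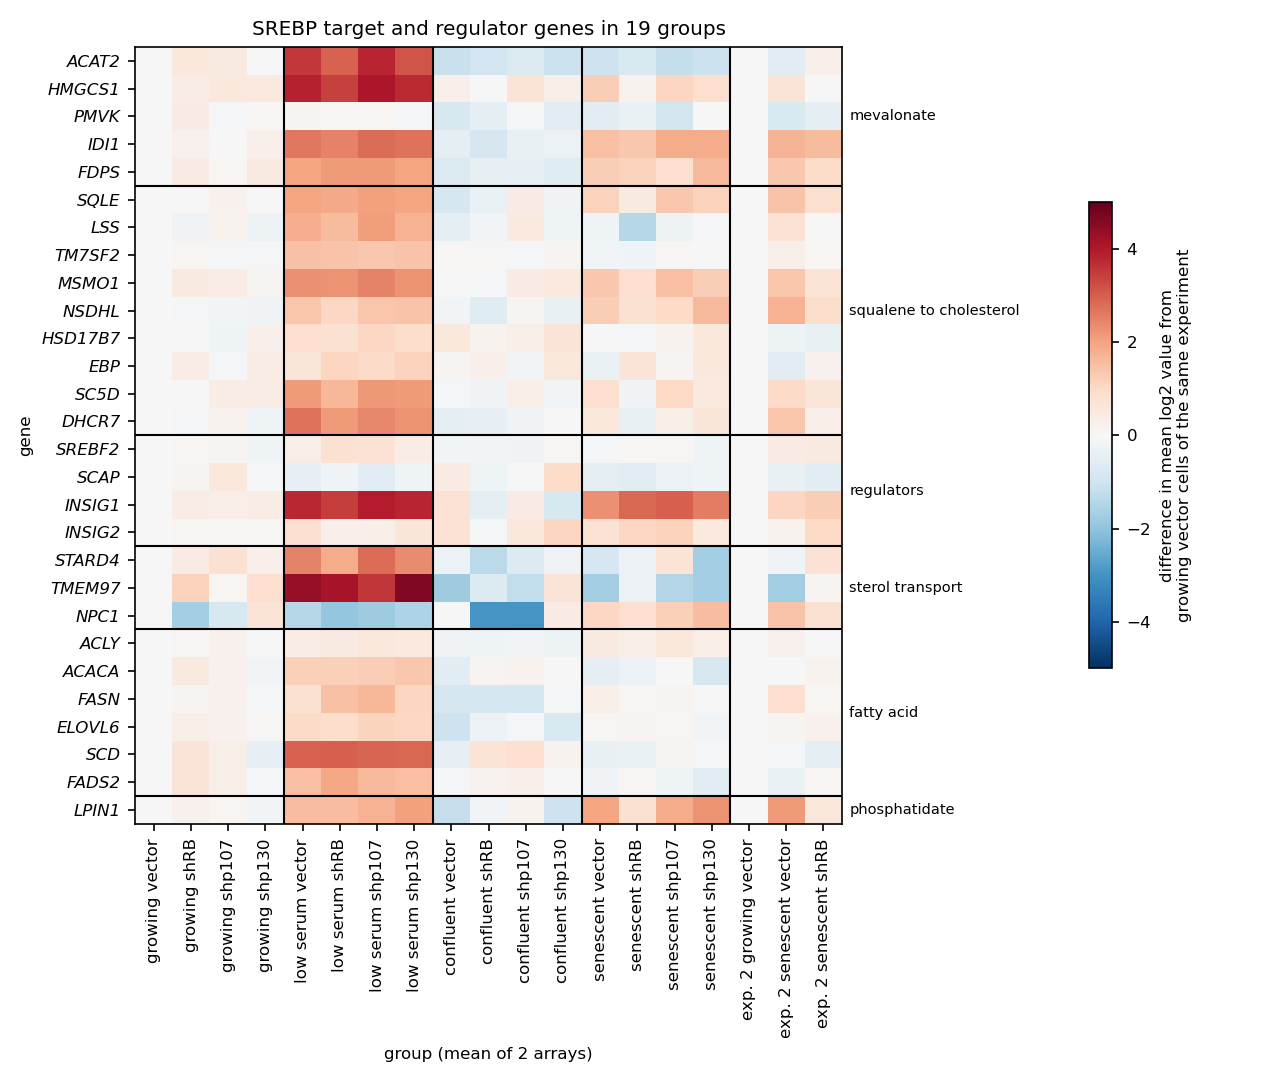
Difference in mean log2 value (colour) from growing vector cells of the same experiment, for 28 members (rows, by role) in 19 groups of 2 arrays (columns). The 4 low-serum columns are red for nearly all enzymes, the senescent columns are red for part of the sterol branch, INSIG1, NPC1 and LPIN1, and NPC1 is darkest blue in confluent shRB and shp107 cells.

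At confluence few members were called in vector cells. In confluent vector cells, no member was higher (background 10.5%) and 5 of 28 were lower (background 14.5%) than in growing vector cells. TMEM97 read 4.50 and 5.95 and fell by 1.77 ± 0.45 (adjusted p = 0.00677), while its other 3 bright probe sets gave -0.63, -0.64 and -0.17. ELOVL6 read 7.93 and 7.42 and fell by 1.03 ± 0.26, and LPIN1 read 6.21 and 6.58 and fell by 1.13 ± 0.40. PMVK fell by 0.79 ± 0.25 and SQLE, at 8.10 and 6.96, by 0.84 ± 0.28, while a pair of further SQLE probe sets gave -0.01 and -0.16. None of the 5 overlapped with growing cells. HMGCS1 read 6.54 and 6.31 and INSIG1 8.44 and 6.61, with changes of 0.26 ± 0.42 and 0.73 ± 0.42 that were not called. The median was -0.31 for the sterol branch and -0.48 for the fatty acid branch, against -0.05 for all genes. Further bright probe sets, not tested, gave -1.61 and -0.69 for ACLY, against -0.16 on its brightest. A further bright probe set gave -1.57 for ELOVL6 and -0.64 for SCD, against -0.42 on the brightest of SCD. The count of lower members was 1 without growing vector replicate 2 and 1 without confluent vector replicate 2, and 3 without the other array of either pair; without confluent vector replicate 2, 2 members were higher. LPIN1 was not called without any 1 of the 4 arrays (adjusted p = 0.0594 to 0.229). SQLE was not called without either growing vector array (0.108 and 0.13) or without confluent vector replicate 2, where its change was -0.27 (0.522). TMEM97 was not called without growing vector replicate 2 (0.0879) or without confluent vector replicate 1, where its change was -1.04 (0.141). PMVK was not called without the replicate 2 of either group (0.256 and 0.166), and ELOVL6 not without confluent vector replicate 2 (0.0805).

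Averaged over the 4 arms, 11 members were lower at confluence (background 27%) and 2 higher (background 17.8%). ACAT2 had the largest fall of an enzyme, 1.21 ± 0.21, with all 8 confluent arrays (5.44 to 6.35) below all 8 growing arrays (6.49 to 7.55). TMEM97 fell by 1.28, STARD4 by 0.98, NPC1 by 0.92, FDPS by 0.77, FASN by 0.72, ELOVL6 by 0.69, IDI1 by 0.63, PMVK and LPIN1 by 0.56 each and ACLY by 0.28. The NPC1 fall lay mostly in the shRB and shp107 arms, and its change in vector cells was -0.01. TMEM97 changed little in shp130 cells. HSD17B7 rose by 0.40 ± 0.10 and INSIG2 by 0.51 ± 0.20 (adjusted p = 0.0484), a call that did not hold without any 1 of 12 of the 16 arrays. By arm, shRB cells had 0 members higher and 5 lower at confluence (background 3.04% and 8.04%), the cells labelled shp107 0 and 1 (3.52% and 4.63%), and shp130 cells 1 and 2 (8.19% and 10.4%). The share of members lower over the arms, 11 of 28, is to be read against the 27% of all genes that were lower in the same comparison.

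Confluent vector cells had 20 members lower (background 13%) and 1 higher, NPC1 (background 8.31%), than low-serum vector cells. TMEM97 was lower by 6.14 ± 0.45 and ACAT2 by 4.66 ± 0.43 on the log2 scale. Against growing vector cells, mitosis genes were lower in both states, 6 of 9 in low serum (background 6.36%) and 9 of 9 at confluence (background 14.5%). The part of proliferation in the differences between low serum and confluence was not tested.

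**Figure D3:**
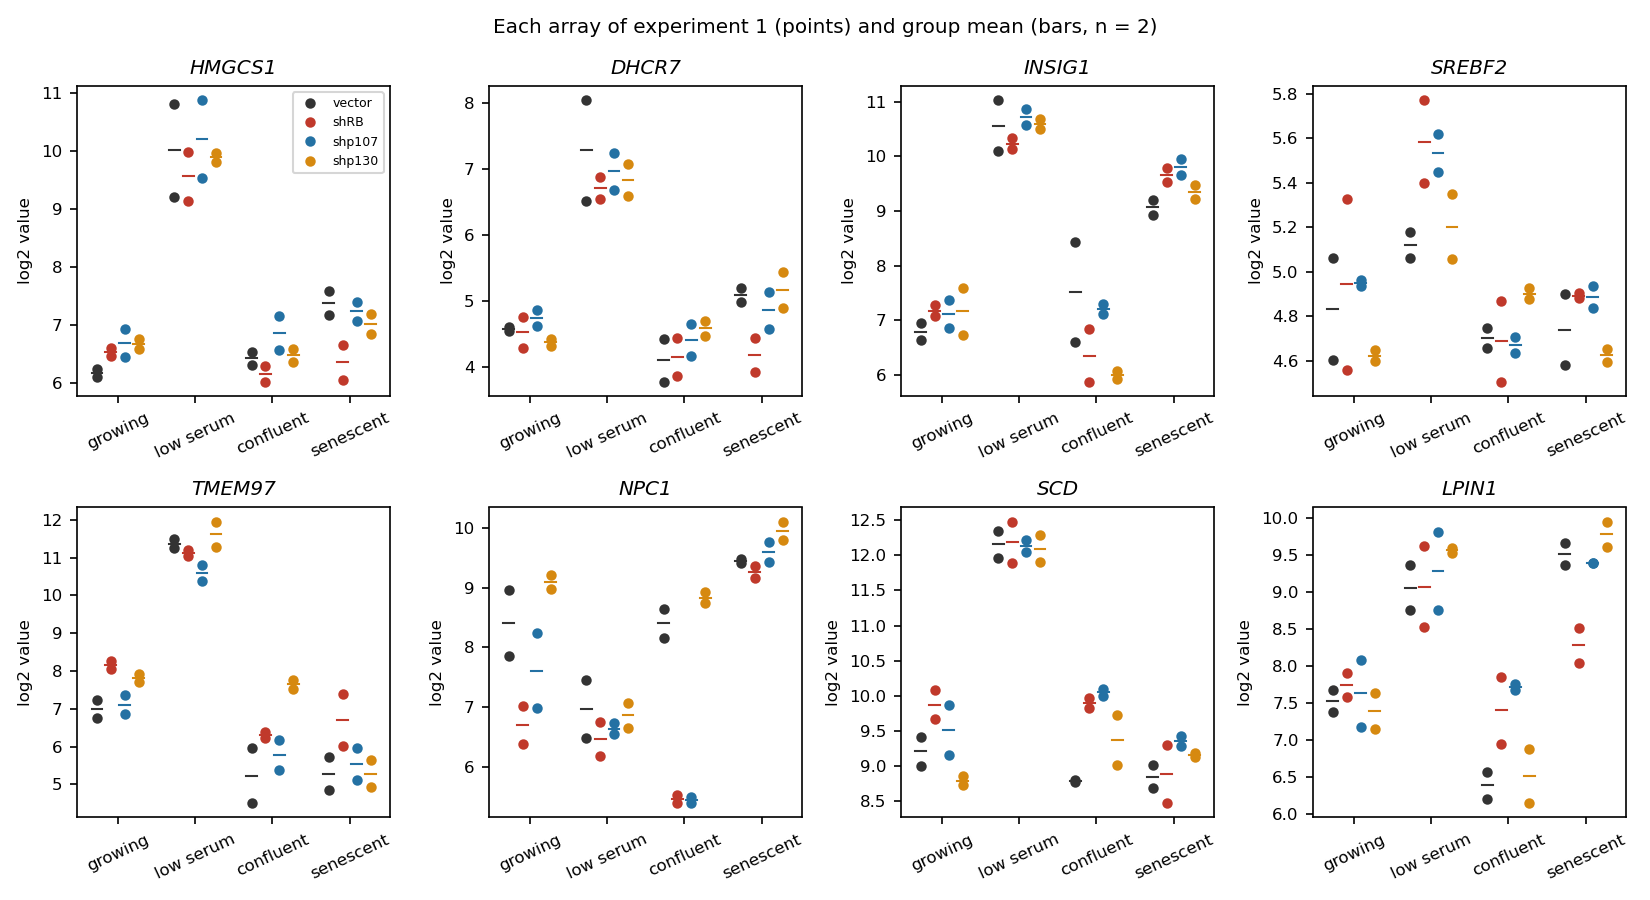
Log2 value (y axis) of 8 members on each array of experiment 1 by growth state (x axis), with 1 colour per arm; points are arrays and bars are means of 2. HMGCS1, DHCR7, INSIG1, TMEM97 and SCD were highest in low serum in all 4 arms, LPIN1 was high in low serum and in senescence, and NPC1 was highest in senescent cells and near 5.5 in confluent shRB and shp107 cells.

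Senescent vector cells showed a rise in part of the pathway. In experiment 1, 10 of 28 members were higher (background 9.21%) and 1 was lower (background 16.2%) than in growing vector cells. Of these, 7 were enzymes of the sterol branch, namely IDI1 (1.52 ± 0.36), MSMO1 (1.33 ± 0.26), NSDHL (1.25 ± 0.35), FDPS (1.24 ± 0.32), HMGCS1 (1.21 ± 0.42), SQLE (1.15 ± 0.28) and SC5D (0.83 ± 0.28). INSIG1, LPIN1 and NPC1 rose as well, and TMEM97 fell. A further, dimmer HMGCS1 probe set gave 0.44. The sterol branch median was 0.68 with 7 of 14 genes higher, and the fatty acid branch median was -0.06 with 0 of 6 called, against -0.10 for all genes; the fatty acid median was 0.07 after quantile normalization between arrays, so its sign is not settled.

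INSIG1 read 8.93 and 9.21 in senescent vector cells against 6.65 and 6.95 in growing ones and rose by 2.27 ± 0.42 (4.84-fold, adjusted p = 0.000392). Further INSIG1 probe sets gave 2.28 and 0.95. LPIN1 read 9.37 and 9.67 against 7.38 and 7.68 and rose by 1.99 ± 0.40 (3.97-fold). TMEM97 read 4.86 and 5.72 against 6.76 and 7.24 and fell by 1.71 ± 0.45 (adjusted p = 0.00788). None of these 3 genes had overlapping groups, and TMEM97, INSIG1 and LPIN1 had all been raised in low serum. NPC1 read 9.48 and 9.42 against 8.96 and 7.86 and rose by 1.04 ± 0.38 (adjusted p = 0.0477). STARD4 read 4.91 and 5.07, ACAT2 5.42 and 5.90 and SCD 9.01 and 8.70, and their changes of -0.83 ± 0.54, -1.05 ± 0.43 and -0.36 ± 0.29 were not called. A further TMEM97 probe set changed by 0.03 in senescence, and the other 2 bright ones by -1.75 and -1.59.

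When 1 array was left out, the count of 10 higher members became 7 (growing vector replicate 1), 6 (growing vector replicate 2), 6 (senescent vector replicate 1) or 5 (senescent vector replicate 2). INSIG1, LPIN1, MSMO1 and SQLE kept their call in all 4 cases. HMGCS1 and SC5D lost it in all 4 (adjusted p between 0.07 and 0.215), NPC1 without each array except growing vector replicate 1 (0.134 to 0.514), FDPS without the replicate 1 of either group (0.0635 and 0.0674), NSDHL without the replicate 2 of either group (0.075 and 0.0783) and IDI1 without senescent vector replicate 2 (0.058). TMEM97 was not called without growing vector replicate 2 (0.0854) or senescent vector replicate 1 (0.121). Each of these values is adjusted over all genes.

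Experiment 2 repeated the comparison with other arrays. There, 11 members were higher (background 18.7%) and 2 lower (background 20.6%). The 7 sterol branch enzymes that rose in experiment 1 all rose again: NSDHL by 1.73 ± 0.18, IDI1 by 1.70 ± 0.16, SQLE by 1.43 ± 0.22, MSMO1 by 1.38 ± 0.16, FDPS by 1.34 ± 0.21, SC5D by 0.95 ± 0.21 and HMGCS1 by 0.63 ± 0.20. LPIN1 read 7.67 and 7.89 in growing and 9.85 and 9.96 in senescent cells and rose by 2.12 ± 0.17 (adjusted p = 3.08e-05). INSIG1 rose by 1.06 ± 0.23 and NPC1 by 1.44 ± 0.28. Further INSIG1 probe sets gave 1.04 and 1.77, and a further, dimmer HMGCS1 probe set gave 1.45. DHCR7, at 4.04 and 4.40 against 5.54 and 5.71, rose by 1.41 ± 0.19, and in experiment 1 its change was 0.53 ± 0.38.

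TMEM97 was lower in both experiments. It read 7.04 and 6.63 in growing and 5.02 and 5.16 in senescent cells of experiment 2, without overlap, and fell by 1.75 ± 0.19 (adjusted p = 0.000162). PMVK fell by 0.74 ± 0.26 (adjusted p = 0.0491), a call that did not hold without the filter on dim genes (0.0594) or after quantile normalization (0.0728); in experiment 1 its change was -0.55 ± 0.25 (adjusted p = 0.121). The sterol branch median was 0.83, and the fatty acid branch median 0.07 with 0 of 6 called, against 0.01 for all genes. In 1 fit over both experiments, the difference of the senescent change between them was called for no member (background 0.658% higher and 0.846% lower). INSIG1 (1.21 ± 0.57) and LSS (-0.91 ± 0.44) had an unadjusted p under 0.05 (adjusted p = 0.366 and 0.379). On a further INSIG1 probe set the order was the other way, with 0.95 in experiment 1 and 1.77 in experiment 2. HMGCS1 lost its call in experiment 2 without 3 of 4 arrays, growing vector replicate 1 (adjusted p = 0.117) and senescent vector replicates 1 (0.176) and 2 (0.172). PMVK lost it without the same 3 arrays (0.204, 0.164 and 0.201), and SC5D without senescent vector replicate 1 (0.0898).

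**Figure D4:**
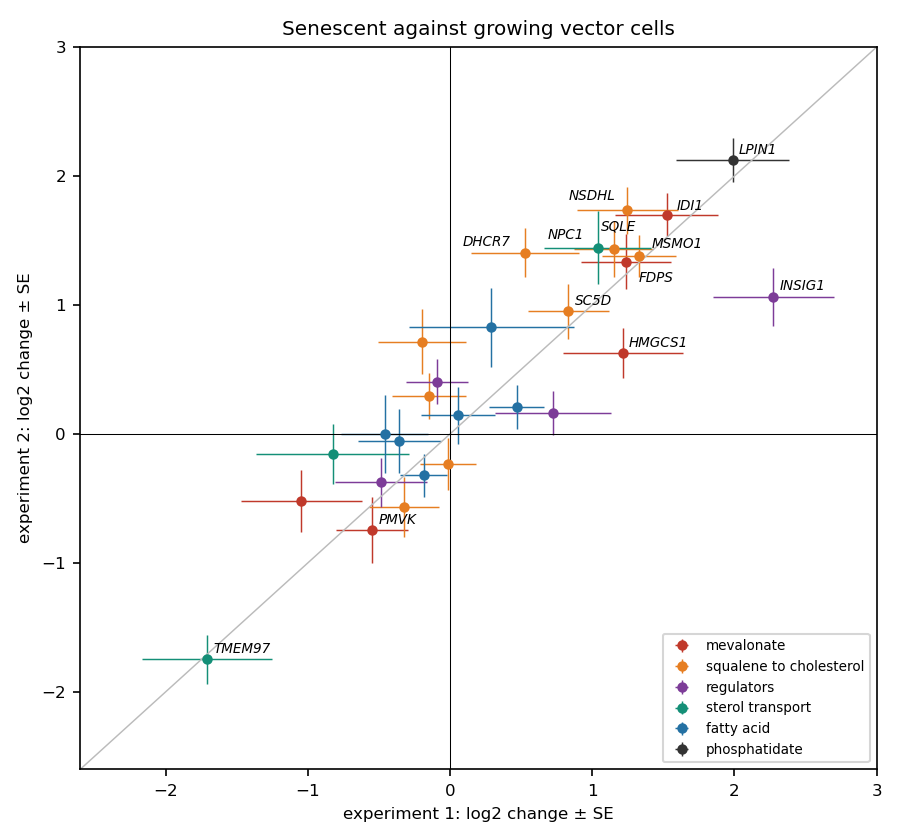
Log2 change from growing to senescent vector cells (± SE) in experiment 1 (x axis) and in experiment 2 (y axis) for the 28 tested members, coloured by role, with the line of equal change. LPIN1 lies near 2 and TMEM97 near -1.7 on both axes, and the 6 fatty acid genes lie between -0.46 (ACACA) and 0.47 (ACLY) in experiment 1 and between -0.32 (FADS2) and 0.83 (FASN) in experiment 2.

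Averaged over the 4 arms, 11 members were higher in senescent cells (background 24.3%) and 8 lower (background 35.7%). INSIG1 rose by 2.41 ± 0.21, LPIN1 by 1.67 ± 0.20, NPC1 by 1.61 ± 0.19, IDI1 by 1.52 ± 0.18 and NSDHL by 1.27 ± 0.18. For INSIG1 the 8 senescent arrays (8.93 to 9.95) lay above the 8 growing arrays (6.65 to 7.60). TMEM97 fell by 1.82 ± 0.23 and ACAT2 by 1.25 ± 0.21, and for ACAT2 the states did not overlap. STARD4 fell by 0.89, PMVK by 0.54, SCAP by 0.52, ACACA by 0.50, and LSS and FADS2 by 0.43 each. INSIG2 rose by 0.80 ± 0.20, and ACLY was the only gene of the fatty acid branch that rose (0.33 ± 0.10). Of the sterol branch enzymes that rose in senescent vector cells, only HMGCS1 was not called here (limma, 0.48 ± 0.21, adjusted p = 0.0539). By arm, shRB cells had 3 members higher and 6 lower (background 12.4% and 20.4%), the cells labelled shp107 8 and 4 (17.2% and 21%), and shp130 cells 7 and 3 (12.6% and 20.1%).

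Senescent vector cells of experiment 1 were set directly against the other 2 non-growing groups. Against low serum, 19 members were lower (background 23.8%) and 1 higher (background 15.2%). TMEM97 was lower by 6.08 ± 0.45, ACAT2 by 4.57 ± 0.43, STARD4 by 3.32 ± 0.54 and SCD by 3.30 ± 0.29, and NPC1 was higher by 2.47 ± 0.38. FDPS, NSDHL and LPIN1, which rose in both states against growing cells, were not called between them. Against confluence, 12 members were higher (background 14.6%) and 2 lower (background 18.8%). LPIN1 was higher by 3.12 ± 0.40, IDI1 by 2.02 ± 0.36 and SQLE by 1.99 ± 0.28, and HSD17B7 and SCAP were lower, by 0.53 and 0.90; neither was called without any 1 of the 4 arrays, and the count of higher members was 7 without confluent vector replicate 2 and 7 without senescent vector replicate 2. Without low-serum vector replicate 2, 12 members were lower against low serum.

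Outside low serum, the tested sterol branch genes differed in how closely they followed one another. Over the 12 groups of experiment 1 that were growing, confluent or senescent, Pearson's r of a gene with the mean of the other tested sterol branch genes was 0.91 for SQLE, 0.86 for IDI1, 0.85 for MSMO1, 0.84 for FDPS, NSDHL and DHCR7, 0.77 for HMGCS1 and 0.75 for SC5D. For ACAT2 it was -0.22, for LSS -0.08, for HSD17B7 -0.22, for EBP -0.11 and for PMVK 0.02. Of the other members, LPIN1 reached 0.92, ACLY 0.87 and INSIG1 0.76, while SCD gave -0.18, TMEM97 -0.28, ACACA -0.33 and FADS2 -0.48. No r is read for TM7SF2, whose values there lay near the floor. These are descriptions over group means that share cells, arrays and normalization. Over the 16 groups with low serum included, PMVK gave 0.39, INSIG2 0.08, NPC1 -0.26 and SCAP -0.51, and of the other members EBP gave the lowest r, 0.70; there, the 4 low-serum groups lie apart from the rest for most members.

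The 10 genes outside the list with the highest Pearson's r with the sterol branch mean over the 16 groups were FABP3, B3GALT2, PRUNE2, MAMLD1, TUFT1, MMAB, TOX4, ANXA3, MOSPD2 and HIPK3, with r from 0.87 to 0.93. FABP3 carries fatty acids in the cytosol, and MMAB, an enzyme of vitamin B12 metabolism, lies next to MVK on the genome. MMAB rose from 4.34 to 6.64 (means of 2) in low-serum vector cells and B3GALT2 from 3.06 to 7.11. The low-serum groups were part of this choice, so a rise in low serum was built into it and is no separate result. FABP3, B3GALT2, PRUNE2, MAMLD1, MMAB and ANXA3 had means below 5 in growing vector cells. Whether they could be tested only through low serum was not checked.

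By state, members were called with a hairpin only in confluent and in senescent cells. Nearly all calls over all genes tested also lay there, so this placement is not particular to the members. In growing and in low-serum cells no member was called with any hairpin (limma). The background, higher and lower, was 0.0822% and 0.106% with shRB, 0% and 0% with shp107 and 0.0352% and 0.0235% with shp130 in growing cells, and 0.0587% and 0.0235%, 0.0235% and 0.0117%, and 0.235% and 0.0352% in low serum. At an unadjusted p under 0.05, the count in growing cells was 4 with shRB, 1 with the hairpin labelled shp107 and 0 with shp130, and in low serum 2, 0 and 1. In confluent cells, 1 member was higher (background 7%) and 1 lower (background 10.5%) in the shRB arm than with vector. In the arm labelled shp107, 5 were higher (background 7.32%) and 1 lower (background 6.17%). With 2 arrays per group, an effect of a hairpin cannot be told apart from another difference between the cells of each arm. With shp130 no member was called (background 0% and 0.0235%), and 3 had an unadjusted p under 0.05.

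NPC1 gave the largest of these differences. It read 8.65 and 8.15 on the confluent vector arrays, 5.52 and 5.39 with shRB, 5.50 and 5.40 with the hairpin labelled shp107, and 8.74 and 8.93 with shp130. The shRB and shp107 arrays lay below every other array of the series for this gene. The change was -2.94 ± 0.38 with shRB (adjusted p = 1.14e-05) and -2.95 ± 0.38 with shp107 (adjusted p = 1.11e-05), both against the same vector arrays, and both kept their call without any 1 of the arrays compared. In growing cells NPC1 read 7.03 and 6.38 with shRB and 6.99 and 8.23 with shp107 against 8.96 and 7.86, with changes of -1.71 (adjusted p = 0.0594) and -0.80 that were not called. In senescent cells all 4 arms lay between 9.16 and 10.11. The fall from growing to confluent cells was larger with shp107 than with vector, by 2.15 ± 0.53 (adjusted p = 0.026; background 1.57% lower and 1.77% higher), the only difference of a state change called for a member. For the confluent change with shRB (background 1.1% and 1.45%) and shp130 (0% and 0.0117%) and the senescent change with shRB (1.34% and 0.646%), shp107 (0.305% and 0.869%) and shp130 (0.094% and 0.0705%), higher and lower, no member was called. The call did not hold when any of these arrays was left out, given with the adjusted p: growing vector replicate 2 (0.206), growing shp107 replicate 2 (0.209), confluent vector replicate 1 (0.0949) and confluent shp107 replicates 1 (0.073) and 2 (0.0966). NPC1 was read on 1 bright probe set.

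**Figure D5:**
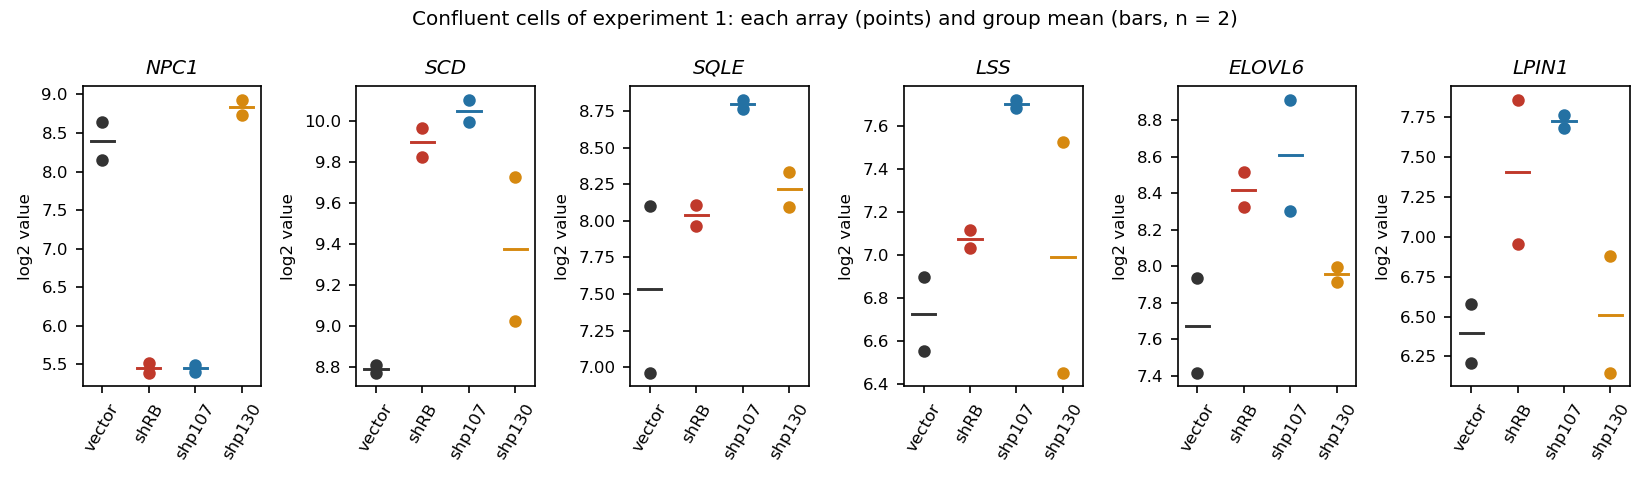
Log2 value (y axis) of 6 members on each confluent array by arm (x axis), points being arrays and bars means of 2; each panel has its own scale. NPC1 lies near 5.5 in the shRB and shp107 arms and above 8 in the others, and SCD lies above the vector arrays in all 3 hairpin arms.

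SCD read 8.81 and 8.77 in confluent vector cells, 9.82 and 9.97 with shRB and 10.10 and 10.00 with shp107, with rises of 1.11 ± 0.29 (adjusted p = 0.011) and 1.26 ± 0.29 (adjusted p = 0.00464) and no overlap. A further bright SCD probe set gave 0.56 with shRB and 0.49 with shp107, and with the mean of all SCD probe sets, dim ones included, neither was called (adjusted p = 0.0958 and 0.12). With shp107, SQLE (8.83 and 8.76 against 8.10 and 6.96) rose by 1.26 ± 0.28 and LPIN1 (7.68 and 7.77 against 6.21 and 6.58) by 1.33 ± 0.40. A pair of further SQLE probe sets gave 0.76 and -0.02. ELOVL6 rose by 0.93 ± 0.26 and LSS by 0.98 ± 0.31; with the mean of all probe sets, SQLE (adjusted p = 0.157) and LSS (0.0833) were not called. The vector pair differed by more than 1 for SQLE and is the pair that stands apart most; its part in these differences was not tested beyond leaving out its arrays. Without confluent vector replicate 2, SQLE (adjusted p = 0.0816) and ELOVL6 (0.148) were not called, and without confluent vector replicate 1 neither were LPIN1 (0.173) and LSS (0.237), nor SCD with shRB (0.0531). ELOVL6, LPIN1 and LSS were also not called without confluent shp107 replicate 2 (0.269, 0.136 and 0.165), LPIN1 and LSS without replicate 1 of that group (0.105 and 0.143), and SCD with shRB without confluent shRB replicate 2 (0.0678).

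In senescent cells of experiment 1, 1 member was higher and 2 were lower in the shRB arm than with vector. There, LSS read 5.99 and 5.61 with shRB against 7.25 and 6.78 and fell by 1.21 ± 0.31 (adjusted p = 0.0148). SC5D, at 8.61 and 8.42 against 9.43 and 9.61, fell by 1.00 ± 0.28, and EBP, at 7.13 and 7.61 against 6.34 and 6.48, rose by 0.96 ± 0.25. The groups did not overlap for any of them, and the background was 3.77% lower and 5.98% higher. LSS lost its call without senescent vector replicate 1 (adjusted p = 0.152) and senescent shRB replicate 2 (0.136), SC5D without each of the 4 arrays (0.0728 to 0.177), and EBP without each except senescent shRB replicate 1 (0.0651 to 0.185).

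In experiment 2, 3 members were higher (background 10.9%) and 4 lower (background 9.24%) in senescent shRB cells than in senescent vector cells. TMEM97 read 6.97 and 6.94 with shRB against 5.02 and 5.16 and rose by 1.87 ± 0.19 (adjusted p = 0.000668). LPIN1 read 8.43 and 8.25 against 9.85 and 9.96 and fell by 1.56 ± 0.17 (adjusted p = 0.001). Neither overlapped, and both kept their call without any 1 of the 4 arrays. In experiment 1, TMEM97 changed by 1.42 (adjusted p = 0.0517) and LPIN1 by -1.23, not called. DHCR7 fell by 1.06, NSDHL by 0.84 and MSMO1 by 0.69, and STARD4 rose by 0.86 and INSIG2 by 0.82. These 5 calls were lost without senescent vector replicate 1 and without senescent vector replicate 2 (adjusted p between 0.0628 and 0.218). Between the experiments, the difference of the shRB change was called for no member (background 0.728% higher and 0.435% lower), and no member had an unadjusted p under 0.05. With the hairpins labelled shp107 and shp130, no member was called in senescent cells (background 2.74% higher and 5.1% lower, and 0.775% higher and 0.893% lower); 1 and 4 had an unadjusted p under 0.05.

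Averaged over the 4 states of experiment 1, shRB cells had 4 members higher (background 7.37%) and 1 lower (background 8.51%). TMEM97 was higher by 0.86 ± 0.23, EBP by 0.48 ± 0.12, SCD by 0.46 ± 0.15 and FADS2 by 0.40 ± 0.08, and NPC1 was lower by 1.34 ± 0.19. With the hairpin labelled shp107, SCD was higher by 0.51 ± 0.15 (background 3.08%) and NPC1 lower by 0.99 ± 0.19 (background 2.47%). With shp130, EBP was higher by 0.55 ± 0.12 (background 0.564%). TMEM97, FADS2 and NPC1 kept their calls without any 1 array, as did EBP with shRB; SCD lost its call without 9 of 16 arrays with shRB and 11 of 16 with shp107, and EBP with shp130 without 11 of 16.

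For 6 listed genes there was no test. FDFT1 had no probe set of its own, and the probe sets of CYP51A1 and FADS1 also name LRRD1 and MIR1908. The kinase MVK, the decarboxylase MVD and SREBF1 stayed below a log2 value of 5 on every array, with highest values of 4.65, 4.63 and 4.32. MVD and MVK had their highest array in low serum.

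Genes of related pathways outside the list were also read; in low-serum vector cells their counts stand beside 6.69% of all genes higher and 6.36% lower. Of 6 genes tested that serve SREBP processing or its turnover, none was called in low-serum vector cells, and ERLIN1 and ERLIN2, which help degrade sterol-bound proteins of the endoplasmic reticulum, were lower in senescent vector cells (-0.93 ± 0.24 and -0.92 ± 0.19) and at confluence (-0.77 and -0.69). Of 4 tested genes tied to the liver X receptor or to sterol efflux and storage, ABCA1 and ABCG1, which export cholesterol, were lower in low serum averaged over the arms (-0.89 ± 0.15 and -1.16 ± 0.30) and higher in senescence (1.24 ± 0.15 and 2.16 ± 0.30), and SOAT1, which esterifies cholesterol, was lower in senescence (-1.22). For comparisons averaged over the arms, the background was 18.8% lower in low serum and 24.3% higher in senescence. Of 10 further fatty acid genes, 2 were higher and 2 lower in low-serum vector cells; the acetyl-CoA synthetase ACSS2 rose by 0.91 ± 0.24 and CPT1A, which takes fatty acids into mitochondria, fell by 1.22 ± 0.27. The citrate carrier SLC25A1 fell by 2.21 ± 0.41 at confluence and by 1.20 ± 0.41 in senescence. Of 9 other sterol genes, 2 were higher in low-serum vector cells, the lysosomal lipase LIPA (0.87) and CYB5B (0.70), and LBR, which has a sterol reductase domain, fell by 1.70 ± 0.37 in senescence. Of 6 genes of the isoprenoid branch, which uses farnesyl diphosphate for other products, none was called in low-serum or senescent vector cells.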

How the data were processed

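The deposited values were log2 values per probe set, made by the authors with GCRMA per the submitters' processing notes, which give no version; GCRMA subtracts background by probe sequence and normalizes between arrays, so values near the floor are compressed. RNA was labelled from 1 µg total RNA, per the labels' protocols. Of 54613 probe sets, 41091 named 1 gene, 1801 several and 11721 none in the platform annotation; probe sets with several genes were left out. Each gene was read on its brightest probe set by mean of all arrays, and genes above a log2 value of 5 on at least 2 arrays of experiment 1 were tested. limma 3.58.1 in R 4.3.3 (lmFit, contrasts.fit, eBayes) was fitted to the 32 arrays of experiment 1, to the 6 arrays of experiment 2 and, for differences between experiments, to all 38; p-values were two-sided and adjusted by Benjamini-Hochberg within each contrast over 8511 genes, with calls at an adjusted p under 0.05. The number of arrays limits the precision: 2 per group, with 16 residual degrees of freedom in experiment 1 and 3 in experiment 2. The fit was tested on simulated data. Means of 4 arms or 4 states set 8 arrays against 8.

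The members and the gene lists were chosen with earlier results of these data known. Values on every array were given for the 2 members of each role with the largest called change between states of vector cells and for all regulators; in hairpin comparisons every called member was named; of each other list, at most 3 called genes were named. Alternatives were another filter, quantile normalization, a variance trend, the mean of all probe sets, a replicate block, other sets of arrays in the fit and leaving out each array. Promoters came from RefSeq on GRCh38.p14.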

Additional observations from a re-analysis of the deposited data

Results flagged for a closer look

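The only difference of a state change that was called for a member concerned NPC1, whose change from growing to confluent cells was lower with the hairpin labelled shp107 than with vector by a log2 difference of -2.15 ± 0.53 (SE, adjusted p = 0.026 over all genes). It was picked out by the test of the difference itself. With shRB the same difference was -1.23 and was not called (adjusted p = 0.255).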

How the results depend on the processing

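Over all alternatives run, no called change of a member turned its sign. Of the checks of single calls, 8 of 15 were lost for the NPC1 difference, 12 of 23 for shp130 over the states, 16 of 33 for shRB in senescence (22 of 84 in experiment 2), 24 of 55 at confluence in shRB cells and 19 of 55 in vector cells, against 24 of 231 in low serum and 25 of 121 in senescence in vector cells and 10 of 143 in experiment 2. The counts and medians that moved are grouped here by setting, and the cause was not tested. Without the filter on dim genes, the counts were 1 lower in senescent vector cells of experiment 2, 1 higher at confluence over the arms, 3 lower and 0 higher at confluence in shRB and shp130 cells, 1 lower in senescent against confluent cells, 3 higher with shp107 at confluence, and 0 for the rise with shp107 over the states and for the NPC1 difference. After quantile normalization, the fatty acid median of senescent vector cells was 0.068, and the counts were 1 lower in senescent cells of experiment 2, 2 lower at confluence and 6 higher in senescence in shRB cells, 1 lower in low serum with shp107, 2 higher at confluence in shp130 cells, 2 higher in confluent against low-serum cells, 1 lower in senescent against confluent cells, 2 higher with shp130 over the states, 1 lower with shRB in growing cells, and 3 and 1 higher at confluence with shRB and shp130. With a variance trend, 2 were higher with shRB in senescent cells of experiment 1 and 1 was lower in senescent against confluent cells. With the mean of all probe sets, dim ones included, the low-serum medians were 1.43 (sterol) and 0.68 (fatty acid) in vector cells and 1.35 and 0.69 over the arms, and the senescent sterol median of experiment 2 was 0.61. The counts there were 0 lower in low serum (vector and shp130), 1 higher at confluence, 2 lower at confluence with shp107, 0 higher in confluent against low-serum cells, 1 lower with shRB in senescence, 2 higher with shRB over the states, 0 either way with shp107 over the states, 2 higher with shp107 at confluence and 0 for the NPC1 difference. With all 38 arrays in 1 fit, 2 were higher with shRB in senescence in experiment 1, and 1 higher and 1 lower in experiment 2. In that fit, 1 was lower in low serum and 2 at confluence with shp107. With shp130, 2 were higher over the states and 1 at confluence. With shRB, 1 was lower in growing cells, and 2 were higher and 2 lower at confluence. With only the groups compared in the fit, 0 were lower in low serum and at confluence and 3 in senescent vector cells. With shRB in senescence, 0 were higher and 0 lower in experiment 1 and 5 higher in experiment 2. At confluence over the arms 1 was higher, and 6 were higher in senescent shRB cells. With shp107, 3 were lower at confluence and 2 in senescence, and with shp130 5 in senescence. In confluent against low-serum cells, 0 were higher and 8 lower, and in senescent against confluent cells 4 higher and 0 lower. At confluence, 0 were higher with shRB or shp107. The count was 0 for the NPC1 difference, and 1 was higher in the difference between experiments.

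The labels give replicates 1 and 2 in each group. Over 120 pairs of groups of experiment 1, the deviations of same-numbered arrays correlated at a median of 0.04, with a range of -0.38 to 0.49, 38 pairs above 0.1 and 17 below -0.1; among vector cells, r between growing cells and low serum, confluence and senescence was 0.27, 0.20 and 0.11. In experiment 2, r was -0.06 for growing with senescent vector cells and -0.14 for senescent vector with shRB cells. Neither the labels nor these values pair the arrays, with 2 per group. With the replicate number as a block, 4 members were lower in senescent cells of experiment 2, 5 higher and 9 lower with shRB there, 1 higher at confluence over the arms and 1 lower in senescent against confluent cells. With the numbers crossed for shRB in experiment 2, 2 were higher and 3 lower; this alternative and the counts without TM7SF2 were chosen after seeing the data.

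Leaving out each array in turn gave these ranges. In low serum, 0 to 1 lower, a sterol median of 1.67 to 2.31 and a fatty acid median of 0.77 to 1.46 in vector cells, 1 to 2 lower and a fatty acid median of 0.88 to 1.32 over the arms, and 0 to 1 lower with shp107. At confluence, 0 to 2 higher and 1 to 3 lower in vector cells, 1 to 2 higher over the arms, 0 to 3 lower with shRB, 0 to 1 lower with shp107, and 0 to 1 higher and 0 to 2 lower with shp130. In senescence, 5 to 7 higher and 0 to 1 lower and a fatty acid median of -0.14 to 0.067 in vector cells; 1 to 4 lower, a sterol median of 0.73 to 0.97 and a fatty acid median of -0.087 to 0.23 in experiment 2; and 0 to 3, 2 to 3 and 1 to 2 lower with shRB, shp107 and shp130. Between states, 12 to 19 lower in senescent against low-serum cells, 0 to 1 higher in confluent against low-serum cells, and 7 to 12 higher and 0 lower in senescent against confluent cells. For hairpins against vector, shRB gave 0 to 1 lower in growing cells, 0 to 1 higher in low serum, 0 to 2 higher and 1 to 3 lower at confluence, 0 to 1 in either direction in senescence, 1 to 2 higher and 1 to 4 lower in experiment 2, and 1 to 3 lower over the states. The hairpin labelled shp107 gave 2 to 3 higher and 1 to 3 lower at confluence, 0 to 1 lower in senescence and 0 to 2 higher over the states, and shp130 gave 0 to 2 higher and 0 to 1 lower at confluence and 0 to 1 higher over the states. Differences of the confluent change gave 0 to 2 lower with shRB, 0 to 1 in either direction with shp107 and 0 to 1 lower with shp130.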
